A study of Sus scrofa with 9 samples.

Results

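The small leucine-rich proteoglycans are secreted proteins of the extracellular matrix with a core of leucine-rich repeats, to which chondroitin, dermatan or keratan sulfate chains can be attached. Their members were chosen by gene symbol alone: DCN, BGN and ASPN of class I, LUM, FMOD, KERA, PRELP and OMD of class II, and EPYC and OGN of class III. Of these 10 symbols, 9 were rows of the deposited table of 34580 genes and transcripts. OGN, the gene of osteoglycin, was not analysed here. The tissue was the germ of a deciduous molar of the lower jaw (Dm3) of miniature pig (Sus scrofa) fetuses. Germs were taken at the cap stage on embryonic day 40 (E40), at the early bell stage on day 50 (E50) and at the late bell stage on day 60 (E60). Total RNA depleted of rRNA was sequenced from 3 libraries per stage, 9 in all, and the levels are in FPKM, the number of sequenced fragments of a transcript divided by its exon length and by the size of the library. The study's methods speak of biological replicates, without saying whether these were separate animals or litters or how many germs each library held, so p-values measure the spread between these libraries.

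Decorin, biglycan, lumican and fibromodulin bind collagen fibrils as they assemble and limit their lateral growth, and decorin and biglycan also bind growth factors of the TGF-β family. Asporin, a relative of decorin with a run of aspartate residues, is an abundant product of the periodontal ligament, and osteomodulin (also called osteoadherin) is an acidic keratan sulfate proteoglycan of bone and dentin. In a tooth germ these proteins belong to the matrix of the dental papilla and follicle, on which predentin and the later ligament are built. Keratocan is best known from the cornea, PRELP from cartilage and basement membranes, and epiphycan from growth plate cartilage.

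The libraries fell into 2 depth sets. Whole reads were recovered from the steps in the FPKM values, and the 3 E50 libraries and E60 library 1 held 13840610 to 16167206 reads (the 4 deeper libraries), against 681622 to 1204251 in the 3 E40 libraries and E60 libraries 2 and 3 (the 5 shallower libraries). Across all rows tested, the Pearson r between libraries was 0.959 to 0.983 within the deeper set, 0.743 to 0.838 within the shallower set and 0.301 to 0.609 between the sets, so E60 library 1 lay with the E50 libraries and apart from the other E60 libraries. Between E40 and E50 the depth set and the stage cannot be told apart. A fit with the depth set as a term takes the depth difference from E60 library 1 against E60 libraries 2 and 3. Its E40 to E50 change therefore rests on 1 deeper E60 library, and on that difference holding at the other stages. E60 was the stage with libraries of both sets, and E60 values are therefore also set against E50 within the deeper set and against E40 within the shallower set. The 5 of 7 ameloblast markers in the table summed to 14.4 to 23.9 FPKM at E40, 21.4 to 23.9 at E50 and 3387 to 18298 at E60, with all 3 E60 libraries above every other library. The 6 of 8 oral keratinocyte markers in the table summed to 2188 to 2977 FPKM at E40, 13.1 to 21.1 at E50 and 14.98 to 41.5 at E60. The 8 of 10 skeletal muscle markers summed to 211 to 311, 23.1 to 28.1 and 13.8 to 17.9 FPKM, and CKM and TNNT3 among them were listed at 0 in all 9 libraries. In such whole-germ RNA, fewer cells of a type and less RNA per cell cannot be told apart.

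Decorin and lumican were the most abundant of these transcripts at the bell stages, while asporin, decorin and osteomodulin led at the cap stage. The mean FPKM at E40 (n = 3 libraries) was 53.9 ± 5.22 (SD) for ASPN, 48.0 ± 6.95 for DCN, 44.7 ± 4.54 for OMD and 22.2 ± 4.01 for LUM. The ranges of ASPN and DCN overlapped at E40, as did those of DCN and OMD, and OMD lay above LUM in all 3 libraries. BGN and FMOD followed at 5.11 ± 2.36 and 4.83 ± 0.595 FPKM with overlapping ranges, and KERA, EPYC and PRELP had means of 2.10, 0.858 and 0.419 FPKM. At E50 the order was DCN with 369 ± 61.0 FPKM, LUM with 341 ± 66.4, OMD with 91.9 ± 19.5, ASPN with 15.03 ± 3.60, BGN with 12.8 ± 1.31 and FMOD with 9.86 ± 0.248 (SD, n = 3). Here DCN and LUM did not differ beyond their spread, nor did ASPN and BGN. At E60 the first 6 places were held in the same order, but the ranges of DCN, LUM and OMD overlapped, with E60 library 1 far above libraries 2 and 3.

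**Figure D1:**
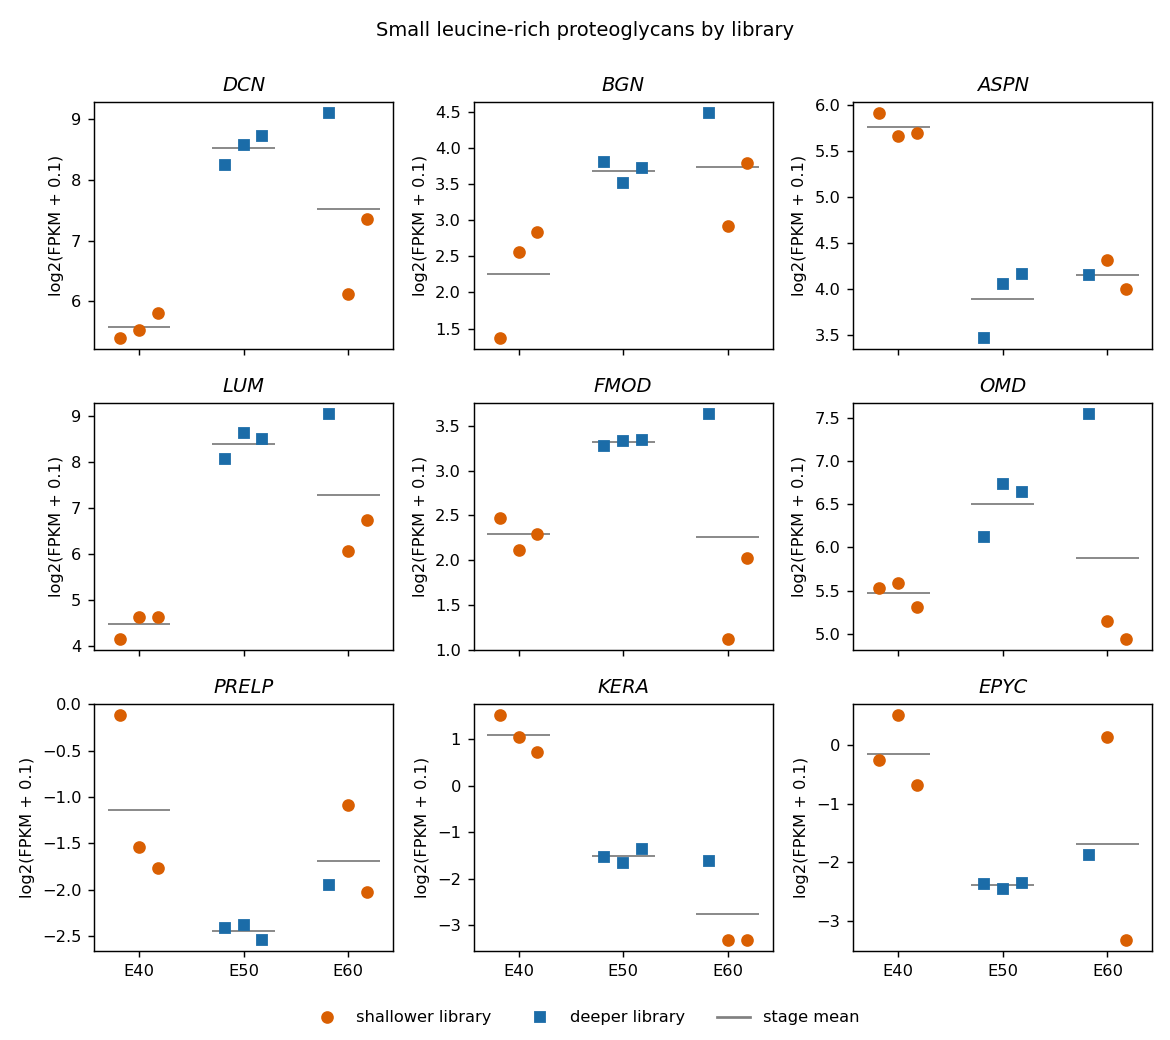
Level of each of the 9 listed genes in every library, as log2(FPKM + 0.1) on the vertical axis against stage, with circles for the 5 shallower and squares for the 4 deeper libraries and a bar at the mean of each stage. DCN, LUM and BGN are higher in every E50 and E60 library than in every E40 library, ASPN and KERA are lower, and in E60 the single square of DCN, LUM, FMOD and OMD stands above both circles.

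Among the class I genes, DCN, which encodes the fibril-binding proteoglycan decorin, was measured at 42.2, 46.0 and 55.7 FPKM in E40 libraries 1, 2 and 3, at 302, 382 and 422 in the E50 libraries, and at 547, 69.3 and 164 in the E60 libraries. All E50 and E60 libraries lay above all E40 libraries, and E60 library 2 was nearest to them. By limma on log2(FPKM + 0.1) with Benjamini-Hochberg adjustment over all rows, DCN rose by 2.94 on the log2 scale between E40 and E50 (standard error 0.64, adjusted p = 0.0132). The log2 fold change was -0.99 (adjusted p = 0.262) from E50 to E60 and 1.95 (adjusted p = 0.191) from E40 to E60 by the same limma fit. Within a depth set, E60 library 1 exceeded all 3 E50 libraries, by 0.58 on the log2 scale on average, and the 2 shallower E60 libraries exceeded the E40 libraries in 6 of 6 pairs, by 1.16.

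BGN, the gene of biglycan, had 2.49, 5.78 and 7.06 FPKM at E40, 13.9, 11.4 and 13.1 at E50, and 22.3, 7.45 and 13.8 at E60. Every E50 and E60 library was above every E40 library, the closest being E60 library 2 with 7.45 FPKM against 7.06 in E40 library 3. The E40 values rested on 5, 13 and 20 recovered reads. The log2 fold change of BGN was 1.43 from E40 to E50 (standard error 0.52, adjusted p = 0.0540) and 1.48 from E40 to E60 (adjusted p = 0.211) in the limma fit, neither past the limit. It was 0.05 from E50 to E60 (95% interval -1.12 to 1.22). Within the deeper set, E60 library 1 lay above E50 in 3 of 3 pairs. Within the shallower set, E60 libraries 2 and 3 lay above E40 in 6 of 6 pairs.

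ASPN, the gene of asporin, ran the other way from decorin. It was measured at 59.9, 50.4 and 51.4 FPKM at E40, at 10.9, 16.4 and 17.7 at E50, and at 17.6, 19.7 and 15.9 at E60. The E40 libraries were all more than 50 FPKM and the other 6 all below 20 FPKM, with deeper and shallower E60 libraries at the same level on this scale. After median-ratio scaling the E60 libraries held 13.5, 38.5 and 18.7 FPKM of ASPN, the deeper 1 below both others. In the limma fit ASPN fell from E40 to E50 by 1.86 on the log2 scale (standard error 0.31, adjusted p = 0.0123), and it fell from E40 to E60 by 1.60 (standard error 0.31, adjusted p = 0.0393). Against the 2 shallower E60 libraries alone, the log2 fold change from E40 was again -1.60 (adjusted p = 0.0156 by limma with the depth set as a term). After median-ratio scaling of the libraries in that fit it was -1.16 (limma adjusted p = 0.120) and no longer past the limit, with 6 of 6 pairs still lower at E60. The E40 libraries were also those with high oral keratinocyte and skeletal muscle markers, and the part of those cells in the ASPN difference was not tested.

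Of the class II genes, LUM, the gene of the keratan sulfate proteoglycan lumican, showed the widest range. Its levels were 17.6, 24.5 and 24.5 FPKM at E40, 268, 397 and 360 at E50, and 526, 66.9 and 107 at E60. No bell-stage library came near the E40 libraries, although E60 libraries 2 and 3 were far below E60 library 1. LUM rose by 3.93 on the log2 scale between E40 and E50 (standard error 0.67, limma adjusted p = 0.0123), about 15.3-fold on the log2(FPKM + 0.1) scale. From E40 to E60 the log2 fold change was 2.82 (standard error 0.67), with an adjusted p of 0.0783 in the limma fit over the 9 libraries. With the depth set as a term, so that the 2 shallower E60 libraries were compared with E40, LUM rose by 1.94 (standard error 0.31, limma adjusted p = 0.0134), and by 2.38 after median-ratio scaling (adjusted p = 0.00096 by limma). All 9 dental mesenchyme and follicle markers were in the table, none at 0, and their sum was 313 to 488 FPKM at E40, 886 to 967 at E50, and 987, 222 and 426 in the E60 libraries. Of these 9 markers, 4 rose and 0 fell from E40 to E50 in limma, against 16.8% of all rows higher. In the shallower E60 libraries the deposited sum was within or below its E40 range, while LUM and DCN were above theirs. After median-ratio scaling the sum was 433 and 501 FPKM in these libraries against 395 to 472 at E40, thus within or above that range. The part of mesenchyme in the rise from E40 to E50 was not tested.

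FMOD, the gene of fibromodulin, had 5.43, 4.24 and 4.81 FPKM at E40, 9.59, 9.93 and 10.1 at E50, and 12.3, 2.08 and 3.98 at E60. E50 lay above E40 in every library, while the shallower E60 libraries, with 9 and 22 reads, were both below all E40 libraries. Its limma log2 fold changes were 1.02 from E40 to E50 (adjusted p = 0.178), -1.06 from E50 to E60 (adjusted p = 0.207) and -0.03 from E40 to E60 (adjusted p = 0.984). With the depth set as a term the first became -1.03 (limma adjusted p = 0.753), so the direction of FMOD between E40 and E50 turned with the treatment of depth.

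OMD, the gene of osteomodulin, was already abundant at the cap stage. It was measured at 46.3, 48.2 and 39.5 FPKM at E40, at 69.7, 106 and 99.8 at E50, and at 186, 35.5 and 30.7 at E60. The E60 libraries split furthest, with library 1 above every E50 library and libraries 2 and 3 below every E40 library. None of its limma comparisons passed the limits. The log2 fold change of OMD was 1.02 between E40 and E50 (limma adjusted p = 0.201), -0.62 between E50 and E60 (adjusted p = 0.448) and 0.40 between E40 and E60 (adjusted p = 0.766). Within the deeper set the E60 library exceeded E50 by 1.04 (95% interval 0.29 to 1.79, limma adjusted p = 0.833). Within the shallower set E60 lay below E40 in 6 of 6 pairs by 0.43 (limma adjusted p = 0.316), a difference that became 0.01, with 3 of 6 pairs higher, after median-ratio scaling.

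KERA, the gene of keratocan, was a cap-stage transcript of low level, with 2.76, 1.97 and 1.56 FPKM at E40, 0.247, 0.217 and 0.288 at E50, and 0.224, 0 and 0 at E60. The E40 libraries were all above every later library, and no read was recovered in E60 libraries 2 and 3. The counts were small, 5, 4 and 4 reads at E40 and 7, 7 and 8 at E50, where the libraries were deeper. A single E40 read stood for 0.391 to 0.551 FPKM of KERA, above all its later values. KERA fell in the limma fit by 2.62 on the log2 scale from E40 to E50 (standard error 0.74, adjusted p = 0.0258) and by 3.85 from E40 to E60 (standard error 0.74, adjusted p = 0.0372), sizes that depend on the pseudocount. Pooled over reads, the 2 shallower E60 libraries were at least 4.11-fold lower than E40, taking 3 reads over both as the limit that a count of 0 allows, for counting error only. The summed skeletal muscle markers were also highest at E40, with 211 to 311 FPKM against 23.1 to 28.1 at E50 and 13.8 to 17.9 at E60. The markers differed in the shallower E60 libraries. MYOG, with 15.5 to 24.6 FPKM at E40 and 0.710 to 1.55 at E50, had 6.43 and 5.05 there. It was alone among these markers in lying above its E50 values in both. MYLPF, with 2.20 and 3.45 FPKM there, and TNNC2, with 3.004 and 4.71, lay below all their E50 values. The part of muscle or other neighbouring tissue in the level of KERA was not tested.

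PRELP and EPYC were at the edge of detection. PRELP had 0.820, 0.244 and 0.194 FPKM at E40, 0.0875, 0.0923 and 0.0714 at E50, and 0.159, 0.372 and 0.146 at E60, from 1 to 10 reads per library, and did not pass the filter of 1 FPKM in 2 libraries. EPYC had 0.736, 1.31 and 0.522 FPKM at E40, 0.0943, 0.0829 and 0.0962 at E50, and 0.171, 1.001 and 0 at E60, from at most 4 reads per library. EPYC passed the filter through E40 library 2 and E60 library 2, each with 2 reads. The difference of EPYC at E50 from E40 was -2.24 on the log2 scale (limma adjusted p = 0.0879), not past the limit, whereas limma-voom on the recovered reads put it past the limit at -3.66 (adjusted p = 0.0257). PRELP was lower in every E50 library than in every E40 library and was not tested. A single E40 read stood for 0.194 to 0.273 FPKM of PRELP and 0.522 to 0.736 FPKM of EPYC, above all their E50 values. Their order between E40 and E50 was thus set by depth wherever an E40 library held a read.

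Counted over the genes, 8 of the 9 listed passed the filter and were tested. KERA reached 1 FPKM in the E40 libraries only. It was therefore tested only because it was high at E40, and its calls as lower later depend on that. From E40 to E50, 4 of the 8 passed both limits in limma, which were 0.05 for the adjusted p and 1 for the size of the log2 fold change: DCN and LUM rose, and ASPN and KERA fell. The background was high, as 38.6% of the 19618 rows tested were called in this comparison, 16.8% higher and 21.8% lower, so 4 of 8 was close to the share of all rows. The median log2 fold change was 1.02 over the 8 genes and 0.55 over all rows. All 9 listed genes were without overlap between E40 and E50, 5 higher and 4 lower at E50, against 73.0% of the rows tested, to which PRELP did not belong. Median-ratio scaling moved the median of all rows to -0.09 and the calls over all rows to 37.1%, 12.2% higher and 24.9% lower. After it, 7 of the 9 did not overlap, 3 higher and 4 lower, against 65.4% of the rows tested. PRELP, EPYC and KERA are among the 4 lower in both counts. For each of them a single E40 read already lay above every E50 value, so depth fixed their place wherever an E40 library held a read. Their lack of overlap therefore says nothing of a fall. KERA held 4 or 5 reads in each E40 library. With the depth set as a term none of the 8 was past the limits, with 0.255% of all rows called. At an unadjusted limma p under 0.05 were 4 of the 8, LUM, ASPN, KERA and OMD, against 7.56% of all rows. Their log2 fold changes were 1.29 for LUM, -1.86 for ASPN, -4.31 for KERA and -1.47 for OMD. DCN, at 0.58, was not among them. These changes with the depth term rest on E60 library 1 against E60 libraries 2 and 3, and do not part depth from stage between E40 and E50. Leaving out E40 library 1, E50 library 2 or E50 library 3 also left none past the limits. The limma adjusted p-values for LUM were then 0.0501, 0.0528 and 0.0541, with 1.09%, 0.297% and 0.297% of all rows called. Leaving out E60 library 1 gave 7 of 8, with 54.6% of rows called.

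From E50 to E60, 0 of the 8 genes passed the limits in limma, where 0.0714% of all rows did. None had an unadjusted p under 0.05 either, against 30.2% of all rows, and limma-voom on the recovered reads also called 0, with 0.734% of all rows called. The medians were -0.81 over the 8 genes and -0.64 over all rows. Without E60 library 1, 5 of the 8 fell, DCN by 1.78 (limma adjusted p = 0.00387), LUM by 1.99 (0.00081), FMOD by 1.74, OMD by 1.45 and KERA by 1.81, with 59.1% of all rows called and the depth set then changing together with the stage. Median-ratio scaling of those 8 libraries left ASPN alone past the limits, with a rise of 1.34 (limma adjusted p = 0.0158), where 38.2% of all rows were called and 25.4% were called higher. Between E50 and E60 library 1, which were of like depth, none of the 8 passed the limits in limma (0.107% of all rows called, and 1 of the 8 at an unadjusted p under 0.05 against 3.77% of all rows), and DCN, LUM, BGN, FMOD and OMD were each higher in the E60 library than in all 3 E50 libraries. EPYC and PRELP, both near the floor, were higher there in 3 of 3 pairs too, while ASPN was in 2 of 3 and KERA in 1 of 3. The share of all rows higher in E60 library 1 than in all 3 E50 libraries was not counted. This order is therefore not shown to be particular to these genes. The comparison of E50 with E60 library 1 rested on a single E60 library, assumed to vary like the rest.

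From E40 to E60, 2 of the 8 passed the limits over all 9 libraries, ASPN and KERA, both lower at E60, where 1.8% of all rows were called and 1.14% were called lower. KERA had entered the test through its E40 values alone. BGN, DCN and LUM did not overlap between E40 and E60 and were higher at E60, against 3.89% of all rows higher without overlap. ASPN and KERA were lower without overlap, against 19.0% of rows. For KERA a single E40 read already lay above every E60 value, so depth could set that order too. Within the shallower set LUM joined ASPN and KERA past the limits, 3 of 8 with 5.89% of all rows called. With median-ratio scaling added there were 4 of 8 past the limits, LUM, DCN (log2 fold change 1.60, limma adjusted p = 0.00555) and BGN (1.54, adjusted p = 0.0365) higher and KERA lower, with 4.9% of all rows called. Median-ratio scaling of all 9 libraries gave 4 of 8, 3 higher and 1 lower, with 3.67% of all rows called, 2.05% higher and 1.62% lower. Over the 9 libraries the deposited values gave a count of 0 when any of E40 libraries 1, 2 or 3, E50 libraries 1, 2 or 3 or E60 library 3 was left out, with limma adjusted p-values for ASPN of 0.0863 to 0.142. It was 3 without E60 library 1, with 6.06% of all rows called, and 4 without E60 library 2, with 6.11% called.

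**Figure D2:**
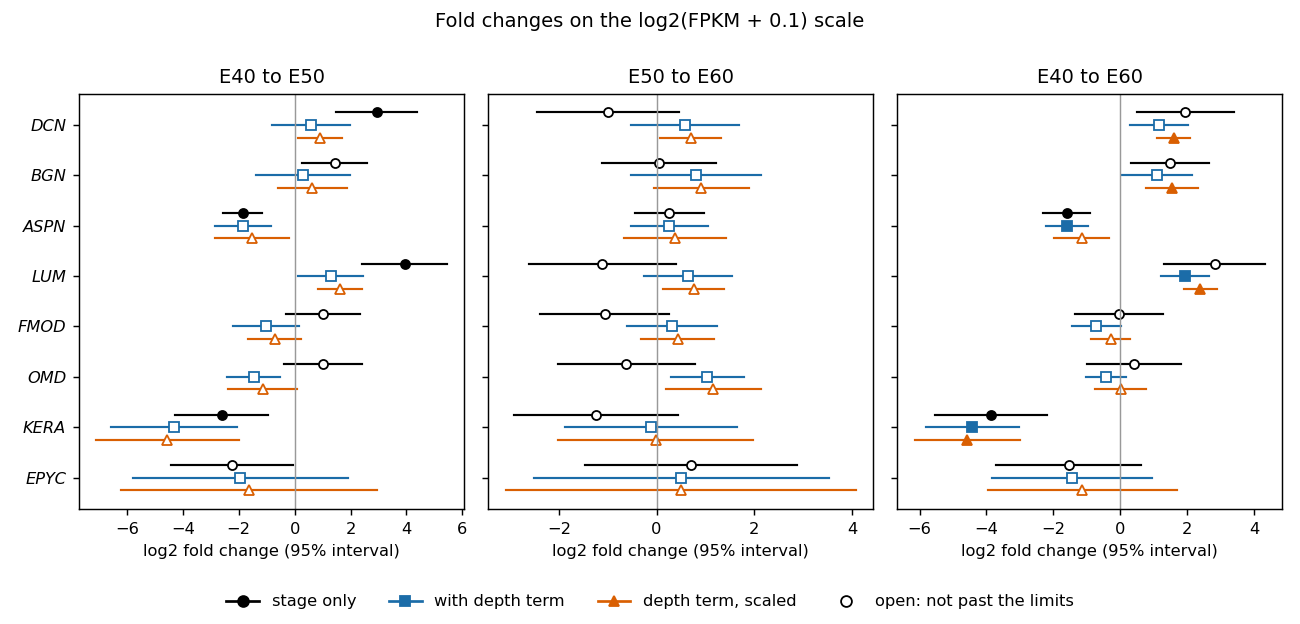
Log2 fold change with its 95% interval for the 8 tested genes in the 3 comparisons, on the horizontal axis, from limma with stage only (circles), with the depth set as a term (squares) and with median-ratio scaling as well (triangles). Filled symbols passed the limits. ASPN and KERA lie left of 0 in every fit from E40 to E50 and E40 to E60, LUM and DCN lie right of 0, and the sign of FMOD and OMD from E40 to E50 turns when depth is a term.

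The make-up of the family does not depend on how libraries are scaled, and it differed most between stages in the shares of ASPN and LUM. The 9 genes summed to 178 to 185 FPKM at E40, to 675 to 923 at E50, and to 1312, 202 and 335 in the E60 libraries. ASPN was 33.6%, 27.6% and 27.7% of this sum at E40, 1.62%, 1.78% and 1.92% at E50, and 1.34%, 9.75% and 4.74% at E60. LUM was 9.87% to 13.4% at E40, 39.0% to 43.0% at E50 and 31.8% to 40.1% at E60. The shares of these genes at E40 were therefore apart from both later stages in every library, whatever the depth. OMD made up 21.3% to 26.4% at E40, 10.3% to 11.5% at E50 and 9.16% to 17.5% at E60, and DCN 23.7% to 30.04%, 41.4% to 45.7% and 34.3% to 48.9%. BGN, FMOD, KERA, EPYC and PRELP together took the small remainder in each library.

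**Figure D3:**
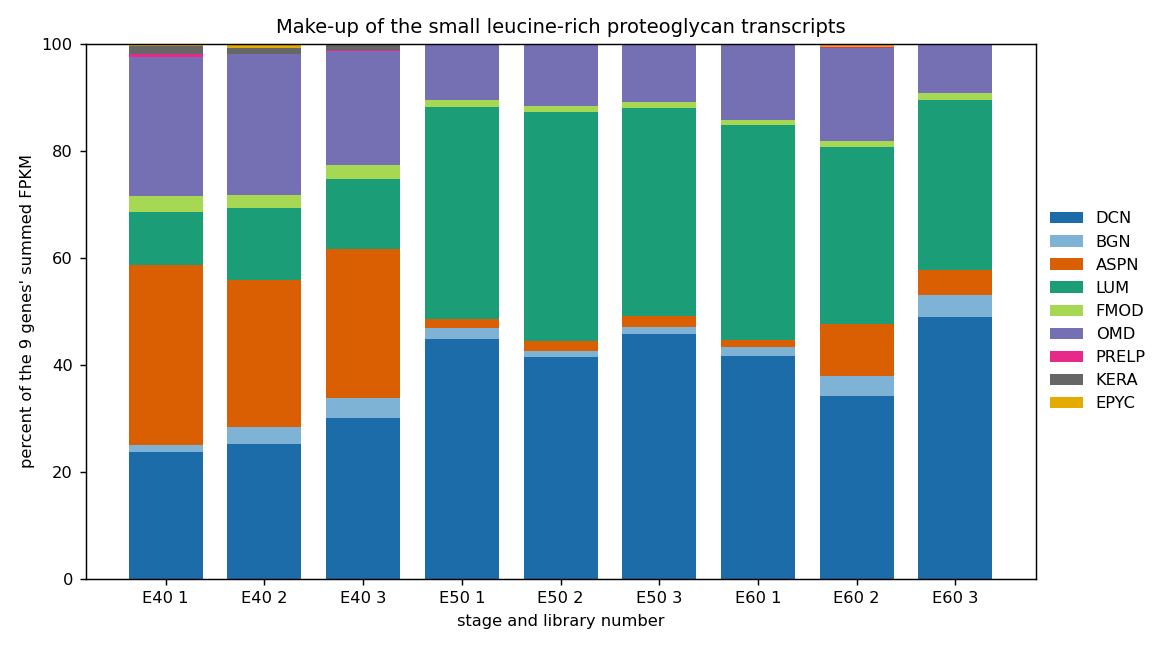
Share of each gene in the summed FPKM of the 9 listed genes, in percent on the vertical axis, with a stacked bar per library. The ASPN share is 27.6% to 33.6% in the E40 libraries and at most 9.75% in the others, while the LUM share is at most 13.4% at E40 and at least 31.8% elsewhere.

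Ratios within a library show the same without any sum. The LUM to ASPN ratio of FPKM was 0.293, 0.486 and 0.477 at E40, 24.4, 24.2 and 20.3 at E50, and 29.9, 3.39 and 6.72 at E60. ASPN exceeded LUM in every E40 library and LUM exceeded ASPN in every later library, including the E60 libraries of the same depth as E40. The DCN to LUM ratio was 1.88 to 2.40 at E40, 0.963 to 1.17 at E50 and 1.04 to 1.54 at E60, so decorin led lumican by more at the cap stage. The OMD to ASPN ratio was 0.769 to 0.956 at E40, 5.63 to 6.47 at E50 and 10.5, 1.80 and 1.93 at E60.

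Against COL3A1, both DCN and LUM were higher at the bell stages, and against COL1A1 the shallower E60 libraries differed between them. The ratio of LUM to COL3A1, the gene of type III collagen, was 0.0517 to 0.0656 at E40, 0.127 to 0.211 at E50 and 0.164 to 0.342 at E60, above E40 in all 6 later libraries. DCN to COL3A1 was 0.117 to 0.134 at E40 and 0.144 to 0.355 in the 6 later libraries, again all above E40. The ratio of DCN to COL1A1, the gene of a type I collagen chain, was 0.564, 0.434 and 0.393 at E40, 1.72, 3.91 and 2.55 at E50, and 0.882, 0.403 and 0.390 at E60. In the shallower E60 libraries it was thus within or just below the E40 range. The ratio of LUM to COL1A1 was 0.173 to 0.235 at E40, 1.53, 4.06 and 2.18 at E50, and 0.849, 0.388 and 0.254 at E60, above E40 in every later library. The DCN to BGN ratio was 16.9, 7.97 and 7.88 at E40, 21.7, 33.6 and 32.1 at E50, and 24.5, 9.31 and 11.9 at E60, with the highest 4 values in the 4 deeper libraries. These ratios are descriptions and were not tested.

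**Figure D4:**
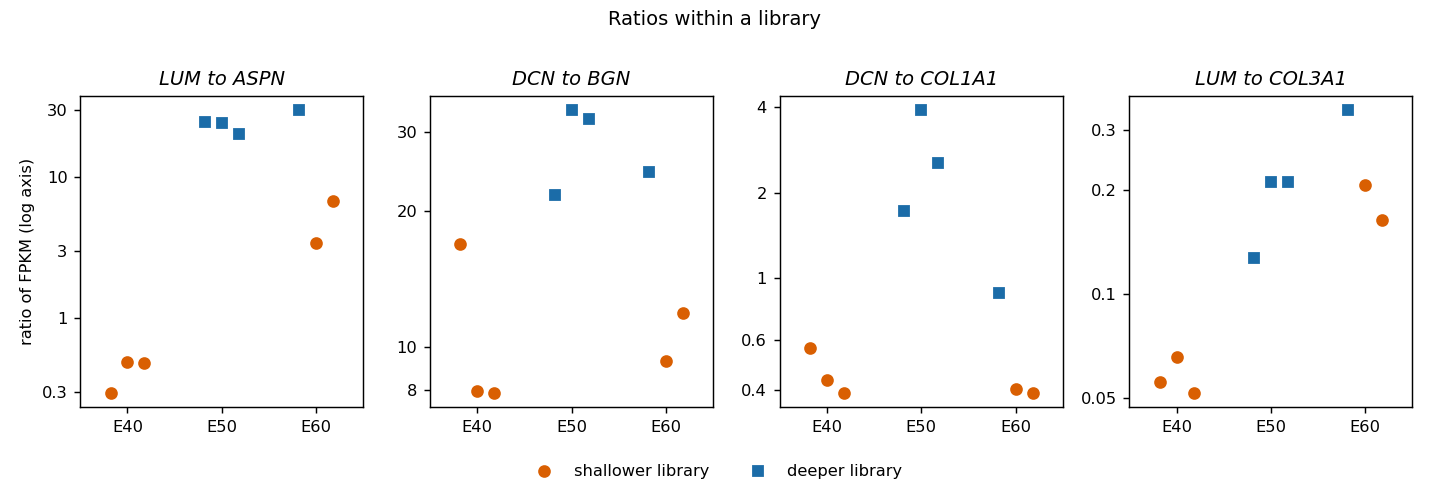
Ratios of FPKM within each library for 4 gene pairs, on log axes against stage, with circles for the shallower and squares for the deeper libraries. LUM to ASPN and LUM to COL3A1 are higher in every later library than in every E40 library, whereas DCN to BGN and DCN to COL1A1 are higher in the squares than in the circles.

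Most of these genes lie beside each other in the genome. In the order of the RefSeq annotation of Sscrofa11.1, which is not the build of the deposited values and serves here only for neighbours, DCN, LUM and KERA follow each other, with EPYC after a pseudogene, OGN, OMD, ASPN and ECM2 follow each other, and FMOD and PRELP do so with OPTC after a long noncoding RNA, while BGN stands alone on the X chromosome. Levels differed widely between neighbours. In the cluster with DCN, the 2 most abundant transcripts of the family at E50 and E60 stood beside KERA and EPYC, which lay at or below 2.76 FPKM in all 9 libraries. Between E40 and E50, DCN and LUM rose and their neighbour KERA fell. In the cluster with OMD, ASPN fell and so did ECM2, the gene of a matrix protein with leucine-rich repeats, which had 79.9, 70.2 and 54.3 FPKM at E40, 23.7, 25.4 and 26.7 at E50 and 24.9, 30.3 and 23.7 at E60 (log2 fold change from E40 to E50 -1.41, limma adjusted p = 0.0129). OMD, on the other side of ASPN from ECM2, did not pass the limits. Against the shallower E60 libraries, ECM2 fell by 1.32 from E40 (limma adjusted p = 0.0212 with the depth set as a term). That ECM2 fit was without median-ratio scaling, after which ASPN was no longer past the limit in the same comparison. CENPP, the gene of a centromere protein, spans this cluster in RefSeq, and it had 147, 109 and 100 FPKM at E40, 9.12, 9.93 and 12.1 at E50, and 8.29, 63.3 and 65.9 at E60. On the deposited scale the shallower E60 libraries lay between E50 and E40 for CENPP, and near E50 for ASPN and ECM2. After median-ratio scaling they held 38.5 and 18.7 FPKM of ASPN, against 7.50 to 12.2 at E50 and 49.7 to 75.6 at E40. Whether reads of CENPP entered the levels of its neighbours was not tested. How reads of overlapping genes were assigned is not given in the sources used here, and levels of OMD, ASPN and ECM2 are uncertain to that extent.

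**Figure D5:**
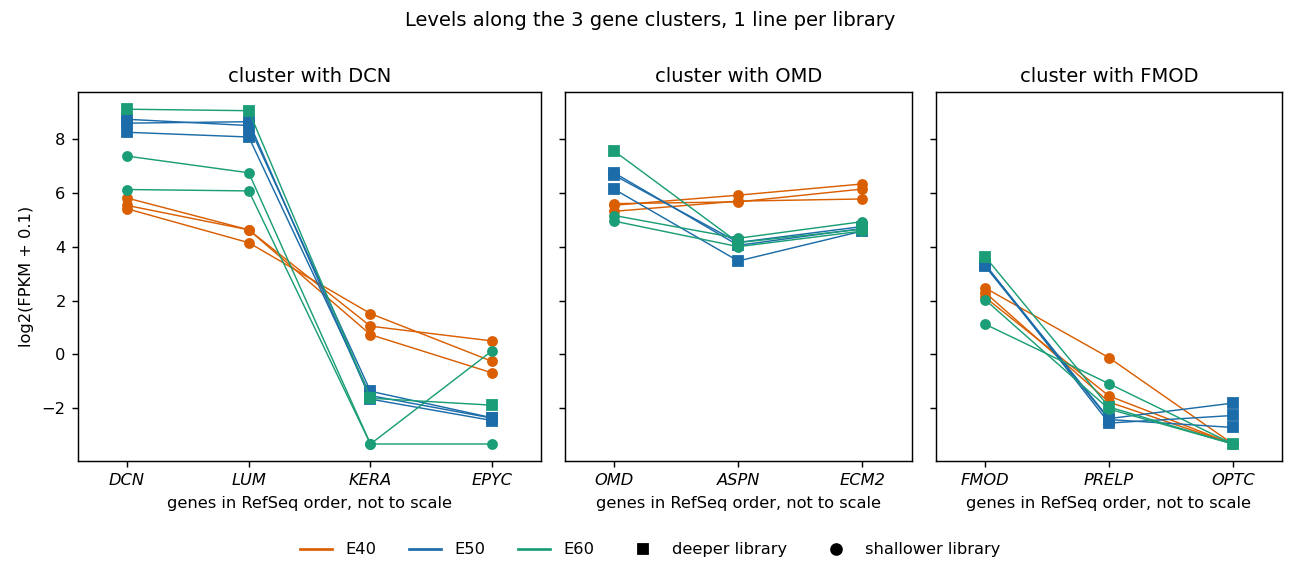
Levels along the 3 gene clusters as log2(FPKM + 0.1) on the vertical axis, with genes in RefSeq order on the horizontal axis (not to scale, OGN left out) and a line per library coloured by stage. In the cluster with OMD the E40 lines lie above all others at ASPN and ECM2 but not at OMD, and in the cluster with DCN the lines of E40 cross the rest between LUM and KERA.

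Across the 9 libraries, on median-ratio scaled log2 values, the pair with the highest Pearson r among the members was DCN and LUM (r = 0.989), followed among genes above 3 reads in most libraries by BGN and LUM (0.720). EPYC, above 3 reads in 1 of 9 libraries, is left out of this order, since the FPKM of a single read differs with depth. ASPN was opposed to DCN (r = -0.893) and LUM (r = -0.884), and KERA to BGN (r = -0.878). OMD was not close to any member, its highest r being 0.697 with FMOD. These r describe 9 libraries that share stage and depth set, and no p is attached. Among 10674 other rows searched, the pattern most like DCN was that of FRZB, the gene of a secreted Wnt antagonist (r = 0.995), then BCAP29 (0.993). FRZB had 4.60, 4.93 and 5.55 FPKM at E40, 41.1, 47.3 and 53.1 at E50, and 58.4, 9.07 and 20.4 at E60, low and high in the same libraries as DCN. FRZB was also most like LUM (r = 0.991), followed by CTSK, the gene of the collagen-cutting protease cathepsin K (0.989). For ASPN the closest were RANBP9 (0.988) and METAP1D (0.985), for BGN ECE2 (0.982) and PTPRB (0.978), the latter a phosphatase of endothelium, and for FMOD EXOC1 (0.977) and MFSD8 (0.973). For OMD they were CAR (0.960) and STYX (0.955). KERA was closest to MYL3 (0.980) and MYLPF (0.978), both genes of muscle myosin light chains. EPYC was closest to CCL5 (0.978) and MYRIP (0.971), from its few reads. MYLPF had 95.3 to 104 FPKM at E40, 11.7 in each E50 library and 2.20 to 7.44 at E60.

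The enzymes that build the chains of these proteoglycans, and the other groups named here, were taken from lists of known genes. Their counts from E40 to E50 stand against 38.6% of all rows called, 16.8% higher and 21.8% lower. Of 21 tested genes of the linker and of chondroitin or dermatan sulfate chains, 1 rose and 1 fell from E40 to E50. The initiating enzyme gene CSGALNACT2 rose from 3.64 ± 0.958 to 19.5 ± 3.16 FPKM (SD, n = 3, limma adjusted p = 0.0182), and the sulfotransferase gene CHST13 fell from 9.67 ± 4.12 to 0.227 ± 0.0604 FPKM (limma adjusted p = 0.00537). CHST13 stood at 3.002 FPKM in E60 library 1 and at 5.91 and 9.58 in the shallower E60 libraries, the latter both within the E40 range of 5.75 to 13.97. Of 7 tested keratan sulfate enzymes, 4 rose and 0 fell, with a median log2 fold change of 1.57 against 0.55 for all rows. The largest rise was that of CHST6, a sulfotransferase of corneal keratan sulfate, by 3.02 on the log2 scale from 2.58 ± 1.92 FPKM (SD, n = 3) at E40 (limma adjusted p = 0.0193). FUT8, a fucosyltransferase, rose by 1.71 and CHST2, a sulfotransferase, by 1.62 (limma adjusted p = 0.0464 and 0.0312). From E40 to E60, CHST1, another keratan sulfate sulfotransferase, rose from 0.423 ± 0.373 to 17.2, 5.11 and 9.71 FPKM in the E60 libraries (log2 fold change 4.67, limma adjusted p = 0.0346), the only 1 of the 7 to pass, and it also passed against the shallower E60 libraries (4.25, adjusted p = 0.0333).

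Of 12 tested fibrillar and fibril-associated collagens, 4 rose and 0 fell from E40 to E50, a share near the 38.6% of all rows called, with a median log2 fold change of 1.05. COL3A1 rose from 388 ± 80.7 to 1894 ± 201 FPKM (SD, n = 3), COL1A2, the other type I chain, from 184 ± 53.1 to 866 ± 90.4, and COL6A3, a chain of the microfibrillar type VI collagen, from 10.4 ± 2.49 to 32.3 ± 4.21, with limma adjusted p-values of 0.0176, 0.0295 and 0.0193. Of 15 tested genes for fibril assembly and crosslinking, 4 rose and 1 fell. PCOLCE2, an enhancer of procollagen cleavage, rose by 2.62, and PLOD2, a lysyl hydroxylase, by 2.04 (limma adjusted p = 0.0173 and 0.0272), and ADAMTS3, a procollagen protease, from 2.70 ± 0.240 to 11.2 ± 1.75 FPKM (limma adjusted p = 0.0318). PLOD2 was the only 1 of these 15 to pass from E40 to E60, from 6.81 ± 1.58 FPKM to 391, 65.8 and 110 FPKM in the E60 libraries (log2 fold change 4.38, limma adjusted p = 0.00866). Against the shallower E60 libraries PLOD2 rose by 3.64 from E40 (limma adjusted p = 0.000956 with the depth set as a term). E60 library 1 lay 3.81 above E50 on the log2 scale, a comparison of a single E60 library whose spread was taken from the rest.

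Of 7 tested relatives with leucine-rich repeats, 1 rose and 3 fell from E40 to E50. LRRC17 rose from 15.9 ± 3.66 to 49.5 ± 6.44 FPKM (SD, n = 3, limma adjusted p = 0.0413), the cartilage gene CHAD (chondroadherin) fell from 12.7 ± 0.655 to 0.218 ± 0.0905 FPKM (adjusted p = 0.0124) and its relative CHADL from 17.4 ± 1.43 to 0.858 ± 0.449 FPKM (adjusted p = 0.0215). CHAD stood at 0.292, 7.15 and 7.07 FPKM in the E60 libraries, and CHADL at 0.221, 10.9 and 7.21, in both cases with the shallower E60 libraries near E40 and the deeper 1 near E50. Of 8 tested proteases that can cut these core proteins, none passed in any of the 3 comparisons over the 9 libraries in limma. From E40 to E50, E50 to E60 and E40 to E60, 1, 0 and 1 had an unadjusted p under 0.05, against 51.7%, 30.2% and 17.9% of all rows. MMP14 had 67.7 ± 14.1, 101 ± 10.4 and 93.1 ± 42.0 FPKM and MMP2 56.6 ± 14.6, 85.2 ± 7.06 and 65.7 ± 30.9 FPKM at E40, E50 and E60 (SD, n = 3). Of 19 tested ligands and receptors, 5 rose and 1 fell from E40 to E50. Among those that rose was BMP2, listed at 0 in the 3 E40 libraries and at 1.003 ± 0.207 FPKM at E50. TLR2, the innate receptor that binds biglycan, rose from 0.267 ± 0.248 to 1.67 ± 0.179 FPKM (limma adjusted p = 0.0383). BMP2 and TLR2 reached 1 FPKM in deeper libraries only, so they passed the filter through the set where they were high. Counted once each, 25 of the 88 genes tested in these 7 lists passed from E40 to E50, a smaller share than the 38.6% of all rows, 0 from E50 to E60 (23 at an unadjusted p under 0.05, against 30.2% of all rows, and 6 past the limits by limma-voom, against 0.734%) and 2 from E40 to E60, against 1.8%. With median-ratio scaling the counts were 20, 7 and 11 of the 88, against 37.1%, 0.413% and 3.67% of all rows. With the depth set as a term, 0 of the 88 passed from E40 to E50, with 10 at an unadjusted p under 0.05. Over all rows, 0.255% passed in that fit and 7.56% had an unadjusted p under 0.05. Leaving out E40 library 1, E50 library 2 or E50 library 3 left 1 of the 88 past the limits between E40 and E50, against 1.09%, 0.297% and 0.297% of all rows. Leaving out E60 library 1 put 4 to 9 genes of each list past them between E50 and E60. Counted once each these were 45 of 87 genes, a smaller share than the 59.1% of all rows.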

How the data were processed

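RNA of deciduous molar germs (Dm3) of miniature pigs was sequenced at 3 stages, and the 9 libraries were grouped by their deposited labels. The authors prepared directional libraries from rRNA-depleted RNA, aligned the reads with TopHat (to Sscrofa 10.2 in the submitters' processing notes) and deposited FPKM values for 34580 genes and transcripts with no stated scaling beyond that. The counting program behind the table is not given in the sources used here.

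The test was limma (version 3.58.1, R 4.3.3) on log2(FPKM + 0.1) for the 19618 rows with 1 FPKM or more in 2 or more libraries, as 1 fit with a mean-variance trend and a coefficient per stage, with Benjamini-Hochberg adjustment per comparison over all rows. Fold changes are on this scale, which understates the change of low genes. Whole reads were recovered from the steps of the FPKM values (tolerance 0.02 reads) for 27088 of 27090 rows above 0 in at least 2 libraries. On simulated data 95.3% of 3103 genes came out exact. Depth sets were split at 5000000 recovered reads, and 3 reads or fewer were taken as the floor. On simulated data for E40 to E50 with a log2 fold change of 2, limma called 112 of 196 changed rows and 6 others among 17663. The simulated libraries held no depth set effect, so these counts do not give the error rate of the comparisons reported here.

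The members, lists and tests were chosen with earlier results of these data known. Named were the members, for each tested member the 2 rows of highest Pearson r with a mean of at least 1 FPKM and no LOC symbol, up to 3 genes per list and comparison past the limits by size (otherwise the 2 of highest mean), and neighbours in RefSeq order. ECM2 was matched through its RefSeq gene ID. Alternatives were other pseudocounts (0.01 and 1), filters, median-ratio scaling, a depth set term, limma-voom on recovered reads, a replicate block, fits of 2 stages and leaving out each library. Other steps used Python 3.11.15, numpy 2.4.6, pandas 2.3.3 and matplotlib 3.10.9. No sequences were used here.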

Additional observations from a re-analysis of the deposited data

How the results depend on the processing

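The number of the 8 tested genes past the limits was 4 from E40 to E50, 0 from E50 to E60 and 2 from E40 to E60. From E40 to E50 it was 0 with the depth set as a term, with or without median-ratio scaling, and 7 in a fit of the 2 stages only, which called 58.5% of all rows. Leaving out 1 library at a time gave 0 to 7. From E50 to E60 it was 1 without E60 library 1 and with median-ratio scaling, and 0 to 5 when 1 library was left out. From E40 to E60 it was 1 with a pseudocount of 0.01, 4 with median-ratio scaling, 4 with the depth set term and scaling, 4 without E60 library 1 and with scaling, 5 by limma-voom, which called 14.5% of all rows, and 0 in a fit of the 2 stages only. Leaving out 1 library gave 0 to 4. Fewer libraries entered the fits of 2 stages, and the cause of the other shifts was not tested.

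Of the log2 fold changes of single genes under the alternatives, 369 kept their direction and side of the limits, 46 lost and 30 gained the call, and 23 turned. From E40 to E50, FMOD was -1.03 with the depth set term and -0.72 with scaling as well, and OMD -1.47 and -1.15. From E50 to E60, the same 2 fits gave 0.58 and 0.70 for DCN, 0.64 and 0.76 for LUM, 0.31 and 0.43 for FMOD, and 1.04 and 1.16 for OMD, which was 0.16 with scaling alone. BGN ran from -0.33 to 0.46 when 1 library was left out. From E40 to E60, FMOD was 0.018 with a pseudocount of 1, 0.073 with scaling and 0.24 by limma-voom, and OMD was -0.43 with the depth set term. Leaving out 1 library at a time, FMOD ran from -0.72 to 0.53 and OMD from -0.43 to 0.87. ASPN, KERA, DCN and LUM kept their sign from E40 to E50 and from E40 to E60 in each of the 20 alternatives, but not their calls. From E40 to E50 the call was lost in 5 of the 20 for each of ASPN, DCN and LUM, and in 9 for KERA. From E40 to E60 it was lost in 12 for ASPN and in 10 for KERA.

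The library numbers are shared across stages but did not pair the libraries, since the correlation of same-numbered deviations from the stage means ran from -0.52 to 0.11 over 9 pairs. A replicate block gave 3, 0 and 0 genes past the limits in the 3 comparisons, and 5104, 4 and 82 of all rows in place of 7580, 14 and 354. Over all rows the number called also moved by more than 1.5 times in other fits. From E40 to E50 it was 50 with the depth set term, 46 with scaling as well, 209 without E40 library 1, 3285 without E40 library 2, 3431 without E50 library 1 and 58 without E50 library 2 or 3. From E50 to E60 it was 81 with scaling, 38 with the depth set term and scaling, 27 with a pseudocount of 1, 144 by limma-voom, 6 in a fit of the 2 stages, 7448 without E60 library 1 and with scaling, and 4 to 11529 when 1 library was left out. From E40 to E60 it was 720 with scaling, 1155 with the depth set term, 961 with both, 955 without E60 library 1 and with scaling, 221 and 696 with pseudocounts of 0.01 and 1, 2851 by limma-voom, 27 in a fit of the 2 stages, and 128 to 1181 when 1 library was left out. Depth limited KERA, EPYC and PRELP, with at most 10 reads in any library, and BGN and FMOD in the shallower libraries.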
